A study of Mus musculus with 26 samples.

Results

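Retinoic acid was added to cultures in which mouse CD4+ T cells were turned into induced regulatory T (iTreg) cells with TGFβ, and the messenger RNA of these cultures was compared with that of cultures given TGFβ alone. The comparison rests on 4 of the 26 RNA-seq libraries of the series, chosen by their labels. Libraries RA_1 and RA_2 came from iTreg cultures with TGFβ and retinoic acid (RA cultures), and TGF_1 and TGF_2 from iTreg cultures with TGFβ alone (TGF cultures). Another 8 libraries shared the statistical fit. These were iTreg cultures with TGFβ, retinoic acid and vitamin C (RA+VC, n = 2), with TGFβ and vitamin C (VC, n = 2), naive CD4+ T cells (n = 2) and Th0 cells, which were activated without being steered to a lineage (n = 2). The cells of all 12 libraries were taken from lymph nodes and spleen of C57BL/6 mice aged 5 to 6 weeks that carry a Foxp3-eGFP reporter, a green label for Foxp3 expression. The labels give no dose or duration of retinoic acid and do not say that the iTreg cultures were sorted for Foxp3, so a culture may hold cells with and without it. Nor do they say that the libraries of a group came from separate animals or cultures. Each p-value thus measures the spread between libraries of a group, which may be technical. That spread was estimated over all 12 libraries of the fit, although the RA pair differed more than the other pairs.

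Retinoic acid is made from vitamin A and acts through nuclear receptors, the RAR proteins, which bind DNA together with RXR partners and switch on target genes when the ligand is present. Among the targets are enzymes that break retinoic acid down, the CYP26 family, which closes a feedback loop. In the gut, dendritic cells supply retinoic acid to T cells, and it is known there for imprinting T cells with receptors that take them to the small intestine and for favouring regulatory T cells when TGFβ is present.

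The 4 libraries held 9986032 to 10963459 counted reads each, and the 12 libraries 9647669 to 11640223. Over log2 levels the RA libraries correlated with each other at r = 0.991, the TGF libraries at r = 0.993, and RA with TGF libraries at 0.970 to 0.979. No replicate pair was a copy, and the RA pair differed from each other more than the other pairs did (chi-square per degree of freedom 10.57, against 4.943 for the TGF pair and 4.672 to 6.532 for the others). The general CD4 T cell markers summed to 4430 and 4640 CPM in the RA cultures, against 4490 and 4500 CPM in the TGF cultures, where CPM are counts per 1e+06 counted reads after scaling of the library totals. Cd4 itself had 733 and 724 CPM with retinoic acid, against 723 and 748 CPM without.

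Promoters of 4 genes are shown first, because they set the best-known DNA element of the retinoic acid receptor beside the genes that responded most. The element is a direct repeat of 6-base blocks spaced by 5 bases. It was searched for on either strand as any pair of the blocks AGGTCA and GGGTCA and their variants with a T. The variants read AGTTCA in the first case and GGTTCA in the second. The window searched ran from 250 bases before to 50 bases after each annotated start (RefSeq, GRCm38.p6), and 31 of 27025 genes (0.115%) had the element. Of the genes tested below it was 1 of 9088 (0.011%), with 0 of 647 called higher and 0 of 826 called lower with retinoic acid. Its absence from any responding gene is therefore the usual case. With 1 base between the blocks, 27 of the 9088 had the repeat, and with 2 bases 6. The stretches shown are the 250 bases before the start. Capitals mark the repeat in Rarb, a retinoic acid receptor gene (chr14:16575477-16575726, minus strand), and in Cyp26a1 (chr19:37697558-37697807, plus strand). The stretches of Cyp26b1 (chr6:84593811-84594060, minus strand) and Ccr9 (chr9:123766961-123767210, plus strand) hold none of the blocks, which says only that these letters are not in these stretches. Of the stretches not shown, those of Hic1 held single GGGTCA blocks, and those of Dhrs3 and Lztfl1 held none of the blocks.
Rarb: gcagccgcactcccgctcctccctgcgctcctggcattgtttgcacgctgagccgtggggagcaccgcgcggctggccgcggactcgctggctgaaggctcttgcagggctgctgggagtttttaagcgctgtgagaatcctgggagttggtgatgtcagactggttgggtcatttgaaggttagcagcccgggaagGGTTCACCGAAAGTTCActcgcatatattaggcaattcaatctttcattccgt
Cyp26a1: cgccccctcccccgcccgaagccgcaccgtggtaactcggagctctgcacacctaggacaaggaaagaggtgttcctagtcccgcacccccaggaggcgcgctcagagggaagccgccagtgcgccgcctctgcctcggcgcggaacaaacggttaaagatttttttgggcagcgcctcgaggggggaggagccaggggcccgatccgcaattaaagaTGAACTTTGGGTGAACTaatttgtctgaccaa
Cyp26b1: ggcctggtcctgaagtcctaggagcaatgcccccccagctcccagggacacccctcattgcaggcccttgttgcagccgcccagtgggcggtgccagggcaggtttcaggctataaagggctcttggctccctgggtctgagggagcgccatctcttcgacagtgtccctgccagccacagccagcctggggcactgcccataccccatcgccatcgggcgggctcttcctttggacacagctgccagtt
Ccr9: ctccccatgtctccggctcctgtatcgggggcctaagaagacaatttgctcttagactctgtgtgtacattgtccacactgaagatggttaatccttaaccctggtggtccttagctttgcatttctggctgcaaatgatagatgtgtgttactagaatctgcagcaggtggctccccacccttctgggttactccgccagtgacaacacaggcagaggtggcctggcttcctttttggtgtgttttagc
Cyp26a1 had 0 reads in all 4 libraries, and a count of 0 allows up to 3 reads per library. Rarb had 0.469 and 0.494 CPM in the RA cultures and 0.182 and 0 CPM in the TGF cultures, a ratio of 5.17 with an exact 95% counting interval of 1.1 to 48.6, and was too low to be tested. Cyp26b1 and Ccr9, without the element in this window, were the most strongly raised genes of the naming rule.

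Across the transcriptome, 1860 of 11287 tested genes (16.5%) differed between RA and TGF cultures at an adjusted p under 0.05 (edgeR quasi-likelihood test, Benjamini-Hochberg), 811 higher (7.19%) and 1049 lower (9.29%) with retinoic acid. By 2-fold or more, 172 were higher and 304 lower. With only the RA and TGF libraries in the fit, 1342 genes were called. The median log2 fold change of all tested genes was 0.0177. The gene lists below were chosen with earlier results of these data known, so the shares called in them describe the lists and test nothing. Counts of called list members below are to be read beside the 7.19% higher and 9.29% lower of all tested genes. The count depended on single libraries, with 1060 calls without RA replicate 1 and 795 without TGF replicate 1. Values below are log2 fold changes ± SE, RA over TGF, unless stated, and each adjusted p is from this test. Where groups are said not to overlap, this only describes 2 against 2 libraries, and the share of all tested genes without overlap was not counted. In bulk RNA, fewer cells of a type and less RNA per cell cannot be told apart.

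Among the enzymes of retinoid metabolism, Cyp26b1 and Dhrs3 were higher with retinoic acid. Cyp26b1, which oxidises retinoic acid, had 59.4 and 45.1 CPM in the RA cultures against 0 reads in both TGF cultures, at least 376-fold higher (bound from 3 counts over the TGF group, adjusted p = 1.84e-08). Dhrs3, which reduces retinal back to retinol, had 6.56 and 6.91 CPM in the RA cultures and 0.364 and 0.759 CPM in the TGF cultures (3.56 ± 0.35, adjusted p = 7.73e-06). For both genes each RA library lay far above each TGF library. Rdh10, which makes retinal from retinol, had 11.2 and 11.8 CPM with retinoic acid against 9.74 and 12.9 CPM without and did not pass (0.02 ± 0.21, adjusted p = 0.959). Crabp2, a carrier of retinoic acid to the nucleus, had at most 1 read in each library.

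The receptors themselves were lower or did not pass. Rarg had 28 and 27.3 CPM in the RA cultures, against 56.5 and 54.4 CPM in the TGF cultures, and fell by 1.00 ± 0.11 on the log2 scale (adjusted p = 1.88e-05). Rxra, an RXR partner, had 78.3 and 59.4 CPM against 121 and 98.3 CPM (-0.67 ± 0.14, adjusted p = 0.00358, or 0.0552 without TGF replicate 1). Rara had 87 and 73.7 CPM against 97 and 95.1 CPM and did not pass (-0.26 ± 0.10, adjusted p = 0.0824, but 0.028 without RA replicate 1). Per length, Rara averaged 18.7 FPKM in the RA cultures and 22.2 FPKM in the TGF cultures, Rxrb 33.9 and 29.9, Rarg 8.72 and 17.3, and Rarb 0.109 and 0.0204. So Rara was the most abundant RAR transcript in both groups, and Rarb was close to absent. Fabp5, a fatty acid binding protein that can also carry retinoic acid, had 30.8 and 38.5 CPM against 68.3 and 60.8 CPM (-0.90 ± 0.13, adjusted p = 0.000289).

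Of 14 tested genes for retinoid metabolism and receptors, 3 were higher and 5 lower, with a median of -0.117 (2 and 2 without TGF replicate 1, 2 and 5 with a median of 0.06 without RA replicate 1, and 2 and 4 without RA replicate 2 or TGF replicate 2). Of 15 tested genes on a list of known retinoic acid responses, which shares members with the first, 7 were higher and 2 lower, with a median of 0.524 (7 and 1 without TGF replicate 1). Nrip1, a corepressor that binds nuclear receptors holding their ligand, had 136 and 101 CPM in the RA cultures, against 44.2 and 39.5 CPM in the TGF cultures (1.51 ± 0.16, adjusted p = 3.70e-05). Hic1, a transcriptional repressor, had 27.5 and 20.1 CPM against 4.74 and 3.32 CPM (2.56 ± 0.22, adjusted p = 2.81e-06). Cd38, a surface enzyme that consumes NAD, had 20 and 22.7 CPM against 13.7 and 12.1 CPM (0.72 ± 0.14, adjusted p = 0.00259). In each of these the RA and TGF libraries did not overlap. Of 7 tested homeobox genes, which retinoic acid patterns in the embryo, 2 were higher and 0 lower (1 and 0 without RA replicate 1, TGF replicate 1 or TGF replicate 2). Hoxb3 had 2.81 and 1.48 CPM with retinoic acid against 0.0911 and 0 CPM without, a ratio of 46.6 with an exact 95% interval of 7.94 to 1880 (adjusted p = 0.0024). Hoxb4 had 3.94 and 3.36 CPM against 1.82 and 1.61 CPM, and its adjusted p of 0.0221 was lost without RA replicate 1, TGF replicate 1 or TGF replicate 2. Of 18 tested nuclear receptors outside the retinoid family, 4 were higher and 1 lower (1 and 1 without RA replicate 1, 1 and 0 without TGF replicate 1). Nr1d2, a clock repressor, had 54.9 and 56.6 CPM against 33.7 and 41.6 CPM (0.57 ± 0.13, adjusted p = 0.00693, or 0.118 without TGF replicate 1).

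The largest change of all tested genes with reads in both groups was in a gut-homing receptor. Ccr9, the receptor for the chemokine of the small intestine, had 399 and 366 CPM in the RA cultures, against 0.182 and 0.285 CPM in the TGF cultures (10.61 ± 0.22, adjusted p = 1.17e-13). It ranged with well-expressed T cell genes in both RA libraries and was near 0 in both TGF libraries. Naive cells averaged 12.6 CPM and Th0 cells 0.35 CPM. Itga4, the α4 chain of the α4β7 integrin that binds gut vessels, had 493 and 338 CPM against 216 and 161 CPM (1.14 ± 0.25, adjusted p = 0.016). Its groups did not overlap, but the RA libraries differed widely, and the adjusted p was 0.144 without RA replicate 1 and 0.111 without TGF replicate 2. Itgb7, the β7 chain, had 1030 and 1010 CPM against 1160 and 1100 CPM and did not pass (-0.15 ± 0.08, adjusted p = 0.256). Itgae, whose αE chain pairs with β7 and holds T cells in epithelium, had 7.87 and 5.13 CPM against 1.18 and 2.28 CPM (1.91 ± 0.35, adjusted p = 0.00157).

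Other homing genes moved in both directions. Fut7, the fucosyltransferase that makes selectin ligands and is needed for entry into inflamed skin, had 5.06 and 8 CPM in the RA cultures, against 58 and 54 CPM in the TGF cultures (-3.10 ± 0.18, adjusted p = 2.77e-08). Fut4, which shares that role, had 17.5 and 16.1 CPM against 76.4 and 66.4 CPM (-2.09 ± 0.16, adjusted p = 1.94e-06). Gpr15, a receptor that directs T cells to the large intestine, had 0.187 and 0.197 CPM against 3.73 and 1.42 CPM (-3.67 ± 0.77, adjusted p = 0.00573, but 0.0648 without RA replicate 1 and 0.0583 without TGF replicate 1). All 3 were lower in both RA libraries than in either TGF library. Ccr8, a receptor of skin-homing and Th2 cells, had 6.37 and 6.02 CPM against 24.8 and 14.3 CPM (-1.66 ± 0.25, adjusted p = 5.00e-04). Ccr4, another receptor of skin-homing cells, had 192 and 154 CPM against 208 and 180 CPM and did not pass (-0.17 ± 0.14, adjusted p = 0.447). Cxcr5, which leads T cells into B cell follicles, had 25.3 and 20.4 CPM against 2.64 and 2.94 CPM (3.03 ± 0.25, adjusted p = 1.94e-06). Of 27 tested homing genes, 7 were higher and 10 lower, with a median of -0.207. Without TGF replicate 1 these counts were 4 and 6, and without RA replicate 1 they were 4 and 8. Of 16 tested integrin chains 2 were higher and 6 lower (2 and 2 without TGF replicate 1, 3 and 3 without RA replicate 2, 1 and 5 without RA replicate 1, 1 and 6 without TGF replicate 2). Itgb5 had 9.47 and 10.3 CPM against 67.5 and 55.9 CPM (-2.64 ± 0.14, adjusted p = 1.57e-08).

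**Figure D1:**
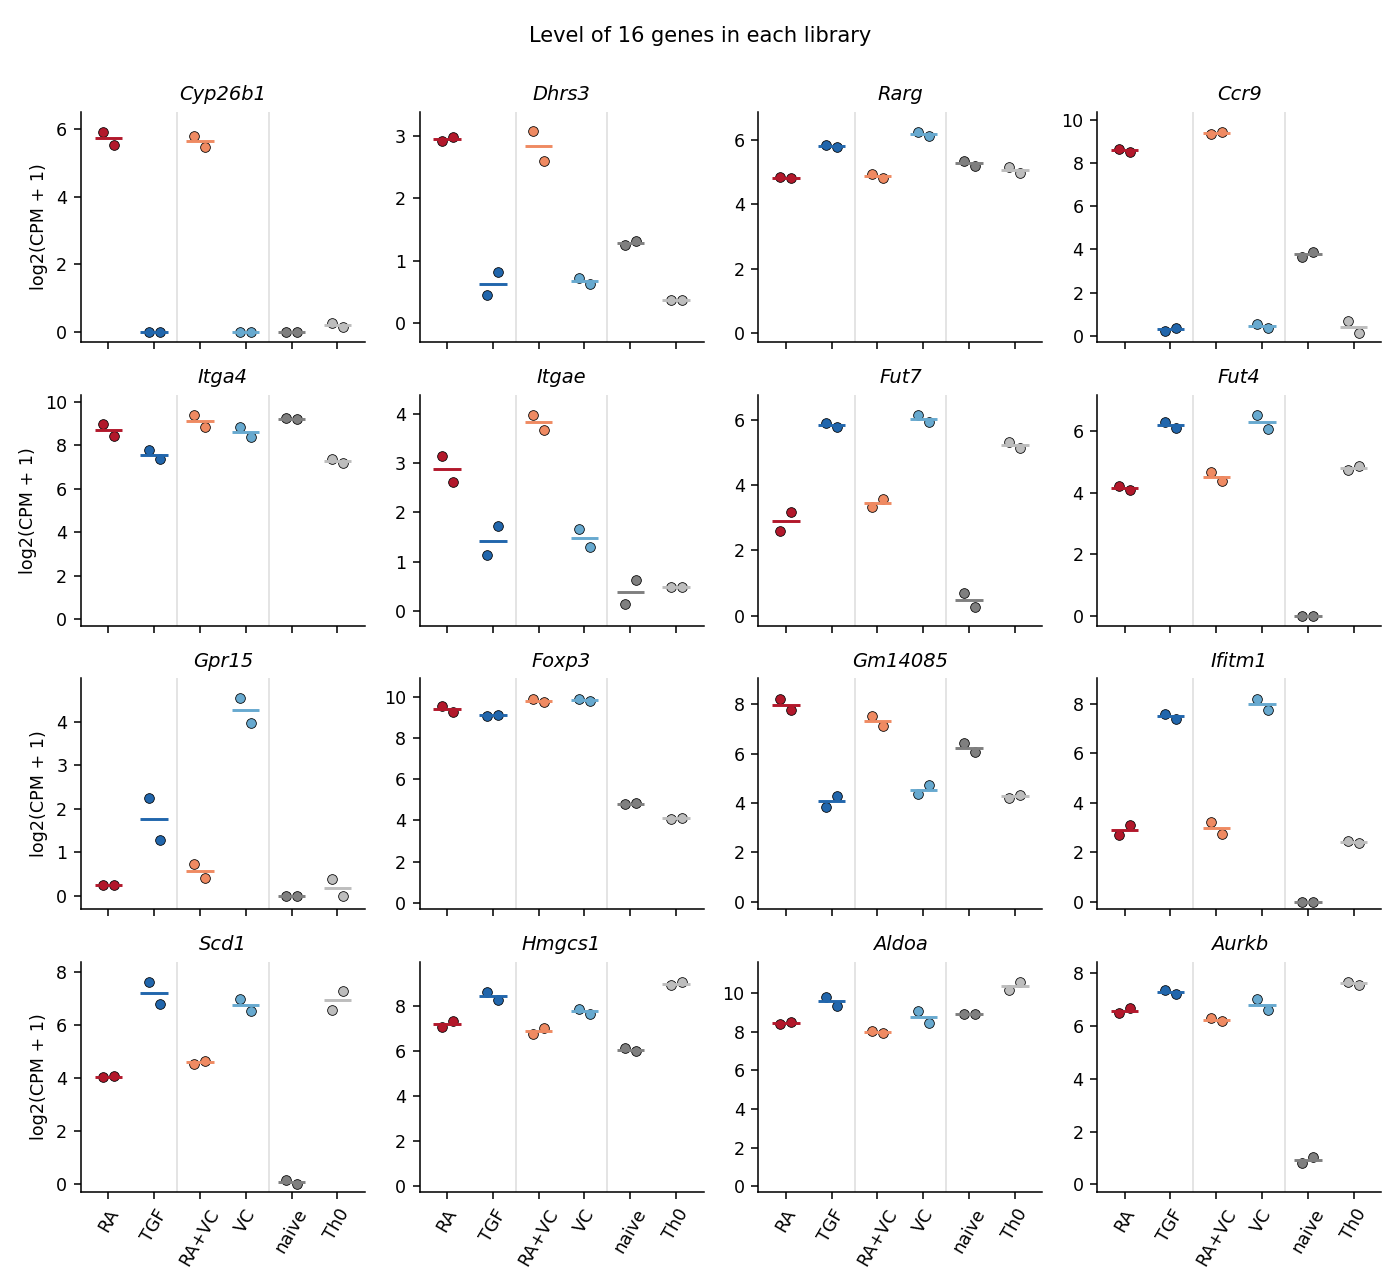
Level of 16 genes in each of 12 libraries, as log2(CPM + 1) on the y axis, with 2 points per group (replicate 1 left, replicate 2 right) and a bar at their mean. Cyp26b1, Dhrs3 and Ccr9 were higher in RA than in TGF cultures and Fut7, Fut4 and Ifitm1 were lower in RA than in TGF cultures in every library, and Foxp3 lay between 539 and 959 CPM in the iTreg libraries.

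Foxp3, which encodes the master regulator of Treg identity, was slightly higher with retinoic acid. It had 750 and 620 CPM in the RA cultures, against 539 and 558 CPM in the TGF cultures (0.32 ± 0.09, adjusted p = 0.0262), while naive cells averaged 27.2 CPM and Th0 cells 16.2 CPM. The groups did not overlap, but the adjusted p was 0.282 without RA replicate 1, 0.168 without TGF replicate 1, 0.0924 without TGF replicate 2 and 0.11 with only the RA and TGF libraries in the fit. Il2ra, the IL-2 receptor α chain, had 3470 and 3180 CPM against 3000 and 3190 CPM and did not pass (0.11 ± 0.08, adjusted p = 0.43). Ctla4, an inhibitory receptor of regulatory T cells, had 407 and 448 CPM against 317 and 354 CPM and did not pass (0.35 ± 0.15, adjusted p = 0.129). Ikzf2, which encodes Helios, had 46.1 and 42.3 CPM against 62.6 and 69.8 CPM (-0.58 ± 0.14, adjusted p = 0.0092, or 0.0628 without TGF replicate 2). Nrp1, a surface protein of thymic regulatory T cells, had 139 and 107 CPM against 85.1 and 96.9 CPM (0.43 ± 0.14, adjusted p = 0.0395). That call was lost without RA replicate 1 (0.368), TGF replicate 1 (0.267) or TGF replicate 2 (0.0629).

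Other genes typical of regulatory T cells moved both ways, and most of those called were lower. Of 29 tested, 6 were higher and 11 lower, with a median of -0.251 (2 and 9 without RA replicate 1, 3 and 9 without TGF replicate 1). Ecm1, a secreted matrix protein made by activated T cells, had 30.1 and 30.7 CPM in the RA cultures, against 126 and 144 CPM in the TGF cultures (-2.15 ± 0.11, adjusted p = 1.55e-08). Ebi3, a subunit of IL-35 and IL-27, had 19.9 and 18.3 CPM against 32.4 and 31.8 CPM (-0.75 ± 0.13, adjusted p = 0.000818). Tnfrsf4, the costimulatory receptor OX40, had 117 and 161 CPM against 222 and 252 CPM (-0.77 ± 0.13, adjusted p = 0.000761). Gpr83, an orphan receptor enriched in regulatory T cells, had 112 and 98 CPM against 36.5 and 54.9 CPM (1.20 ± 0.22, adjusted p = 0.00465, or 0.0656 without RA replicate 1). Il10, which encodes the suppressive cytokine IL-10, had 0 reads in all 4 libraries.

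The TGFβ pathway list gave 7 higher and 5 lower of 30 tested genes, with a median of 0.0295. Without RA replicate 1 the counts were 2 and 5 with a median of -0.13, without TGF replicate 1 they were 3 and 4, and without TGF replicate 2 they were 3 and 6 with a median of -0.03. Acvrl1, a type I receptor of the family that signals through the BMP-type SMAD proteins, had 15.9 and 20.9 CPM in the RA cultures, against 86.1 and 88.3 CPM in the TGF cultures (-2.24 ± 0.21, adjusted p = 2.85e-05). Id1, a target of that BMP-type branch, had 4.97 and 7.7 CPM against 21 and 20.4 CPM (-1.71 ± 0.20, adjusted p = 4.01e-05). Id2, another inhibitor of E proteins, had 66.1 and 81.6 CPM against 175 and 168 CPM (-1.22 ± 0.12, adjusted p = 6.29e-06). The receptor gene Tgfbr1, chosen after its values were seen, had 123 and 118 CPM against 80.2 and 77.2 CPM (0.61 ± 0.08, adjusted p = 0.000122). Tgfb1, the ligand, did not pass (279 and 267 CPM against 326 and 300 CPM, adjusted p = 0.145).

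Of 17 tested genes typical of Th1 cells, 7 were lower, 2 higher and 8 did not pass, with a median of -0.383 (6 and 1 without TGF replicate 1). Il12rb2, the inducible chain of the IL-12 receptor, had 2.81 and 2.07 CPM in the RA cultures, against 9.2 and 5.6 CPM in the TGF cultures (-1.59 ± 0.29, adjusted p = 0.00172). Its partner Il12rb1 had 17.2 and 14 CPM against 41.2 and 31.7 CPM (-1.22 ± 0.16, adjusted p = 0.000114). Il18r1, the IL-18 receptor, had 28.4 and 22.3 CPM against 67 and 71 CPM (-1.44 ± 0.15, adjusted p = 1.15e-05). The accessory chain Il18rap followed, with 7.03 and 5.63 CPM against 16.4 and 13.5 CPM (-1.24 ± 0.20, adjusted p = 0.000642). None of the receptor chains overlapped between the groups. Ccl5, a chemokine of Th1 and CD8 T cells, had 0 reads in both RA cultures against 1.09 and 0.949 CPM in the TGF cultures, at least 7.09-fold lower. Stat4, which carries the IL-12 signal, was higher (187 and 192 CPM against 142 and 141 CPM, 0.43 ± 0.08, adjusted p = 0.00199). Tbx21, the Th1 factor, was too low to be tested (0.562 and 0.592 CPM against 0.273 and 0.19 CPM), and Ifng had 0 reads in all 4 libraries.

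Genes of the other helper lineages were split. Of 11 tested Th17 genes, 4 were higher and 2 lower (2 and 1 without TGF replicate 1), with a median of 0.123. Il6ra, the IL-6 receptor, had 108 and 79.7 CPM in the RA cultures, against 181 and 167 CPM in the TGF cultures (-0.89 ± 0.16, adjusted p = 0.00198), and its signalling partner Il6st had 237 and 210 CPM against 133 and 143 CPM (0.69 ± 0.09, adjusted p = 0.000137). Il17a had 0 reads in all 4 libraries. Of 8 tested Th2 genes, 2 were higher and 2 lower (1 and 2 without RA replicate 1 or TGF replicate 1). Gata3 had 98.1 and 95.3 CPM against 97.4 and 88 CPM (0.06 ± 0.09, adjusted p = 0.691), Il4ra had 589 and 580 CPM against 423 and 409 CPM (0.49 ± 0.07, adjusted p = 0.000153), and Il4 had 0 reads. Of 10 tested genes of follicular helper cells, 3 were higher and 1 lower (1 and 1 without TGF replicate 2, 2 and 2 without RA replicate 2). Besides Cxcr5, these included Bcl6, the follicular helper factor (7.03 and 8.39 CPM against 4.83 and 4.93 CPM, 0.66 ± 0.18, adjusted p = 0.0199), a call lost without RA replicate 2, TGF replicate 1 or TGF replicate 2. Icos, a costimulatory receptor, was lower (119 and 111 CPM against 168 and 166 CPM, -0.54 ± 0.11, adjusted p = 0.00458).

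Surface and signalling lists were also mixed. Of 23 tested checkpoint and costimulatory receptors 6 were higher and 4 lower (5 and 3 to 6 and 4 without any 1 library, except 4 and 3 without RA replicate 1 or TGF replicate 1). Cd96, an adhesion receptor for nectin-like proteins, had 221 and 224 CPM in the RA cultures, against 129 and 127 CPM in the TGF cultures (0.80 ± 0.08, adjusted p = 1.73e-05). Cd27 had 215 and 235 CPM against 122 and 147 CPM (0.74 ± 0.12, adjusted p = 0.000427). Of 21 tested cytokine receptors 6 were higher and 4 lower (3 and 4 without TGF replicate 1), of 17 cytokine genes 3 and 4 (1 and 1 without RA replicate 2 or TGF replicate 1, 3 and 1 without RA replicate 1, 3 and 2 without TGF replicate 2), and of 18 STAT and SOCS genes 2 and 1 (1 and 0 without RA replicate 1 or TGF replicate 1, 2 and 0 without RA replicate 2). The share called in the STAT and SOCS list, 16.7%, was near the 16.5% of all tested genes. The cytokine Tnfsf11, or RANKL, had 33.9 and 33.7 CPM against 20.3 and 19.5 CPM (0.77 ± 0.12, adjusted p = 0.000636). Of 28 tested early genes of T cell receptor signalling 3 were higher and 7 lower (1 and 5 without TGF replicate 1, 2 and 7 without TGF replicate 2, 2 and 6 without RA replicate 1). Egr3, a factor induced by calcium signalling that restrains T cell activation, had 7.78 and 6.22 CPM against 1.73 and 1.04 CPM (2.32 ± 0.35, adjusted p = 0.000313). Fosl2, an AP-1 subunit, had 5.53 and 8.19 CPM against 20.9 and 16.6 CPM (-1.46 ± 0.23, adjusted p = 0.000416). Of 14 tested AP-1, Maf and BATF factors 2 were higher and 3 lower (0 and 2 without RA replicate 1 or TGF replicate 2, 1 and 1 without TGF replicate 1). Of 27 tested lineage transcription factors 8 were higher and 4 lower (4 and 4 without RA replicate 1 or TGF replicate 2, 4 and 1 without TGF replicate 1). Ikzf3, which encodes Aiolos, had 217 and 158 CPM against 81 and 83 CPM (1.19 ± 0.14, adjusted p = 3.67e-05).

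Sterol and fatty acid synthesis genes were lower with retinoic acid. Of 32 tested, 28 were lower and 0 higher (87.5% called), with a median of -0.857, and the count lay between 23 and 28 without any 1 of the 4 libraries. Hmgcs1, which makes the precursor of mevalonate, had 132 and 161 CPM in the RA cultures, against 401 and 305 CPM in the TGF cultures (-1.27 ± 0.14, adjusted p = 3.79e-05). Mvk, the next kinase of that pathway, had 15.6 and 19.9 CPM against 42.2 and 32.7 CPM (-1.08 ± 0.15, adjusted p = 0.000146), and Fdps, which makes farnesyl diphosphate, had 107 and 142 CPM against 362 and 270 CPM (-1.34 ± 0.15, adjusted p = 7.21e-05). The fatty acid desaturases changed most. Scd1 had 15.3 and 15.9 CPM against 195 and 110 CPM (-3.29 ± 0.36, adjusted p = 0.000595), and Scd2 had 259 and 306 CPM against 1100 and 736 CPM (-1.70 ± 0.21, adjusted p = 0.000557). Every RA library was below every TGF library for these 5 genes, and TGF replicate 1 was the highest. Srebf2, the factor that drives the sterol genes, had 599 and 509 CPM against 626 and 556 CPM and did not pass (-0.09 ± 0.10, adjusted p = 0.56), and Fasn had 767 and 535 CPM against 912 and 730 CPM (-0.33 ± 0.21, adjusted p = 0.32). Acsl6, which activates long fatty acids, had 1.12 and 1.38 CPM against 29.9 and 23.7 CPM (-4.41 ± 0.29, adjusted p = 2.98e-07). Of 13 tested genes for lipid efflux and eicosanoids 1 was higher and 4 lower (2 and 3 without RA replicate 1, 2 and 5 without RA replicate 2, 1 and 2 without TGF replicate 1). Hpgds, which makes prostaglandin D2, had 3.75 and 4.94 CPM against 1.09 and 1.04 CPM (2.01 ± 0.35, adjusted p = 0.00113).

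Glycolysis and hypoxia-response genes were lower as well, though less evenly over the libraries. Of 31 tested, 19 were lower and 1 higher, with a median of -0.707, and without RA replicate 1 or TGF replicate 1 the lower count was 11 and the higher count 0. Slc16a3, the lactate exporter, had 18.1 and 18.7 CPM in the RA cultures, against 108 and 78.8 CPM in the TGF cultures (-2.35 ± 0.32, adjusted p = 0.0016). Tpi1, a glycolytic isomerase, had 272 and 315 CPM against 690 and 568 CPM (-1.10 ± 0.16, adjusted p = 0.000889). Aldoa, an aldolase, had 340 and 366 CPM against 886 and 651 CPM (-1.12 ± 0.22, adjusted p = 0.00899), a call lost without RA replicate 1 (0.109), RA replicate 2 (0.0597) or TGF replicate 1 (0.0591). Hif1a, the hypoxia factor itself, had 284 and 258 CPM against 330 and 320 CPM and did not pass (-0.26 ± 0.10, adjusted p = 0.0933).

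Cell cycle genes were lower by small and even amounts. Of 39 tested, 33 were lower and 0 higher (84.6% called), with a median of -0.51 (19 lower without TGF replicate 1). Aurkb, a mitotic kinase, had 89.4 and 101 CPM in the RA cultures, against 163 and 148 CPM in the TGF cultures (-0.71 ± 0.12, adjusted p = 0.000707). Ccne1, the cyclin of the entry into DNA replication, had 40.9 and 40.8 CPM against 65 and 65.7 CPM (-0.68 ± 0.10, adjusted p = 0.000295), and Cdc45, a part of the replication helicase, had 49.9 and 58.1 CPM against 82.7 and 83.3 CPM (-0.62 ± 0.09, adjusted p = 0.000338). Cdkn1a, which encodes the cell cycle inhibitor p21, was lower too, with 15.7 and 12.4 CPM against 51.3 and 45.4 CPM (-1.78 ± 0.16, adjusted p = 3.81e-06). Cdk4 and Ccnd2, of the early G1 phase, did not pass (263 and 317 CPM against 304 and 327 CPM, and 784 and 757 CPM against 747 and 828 CPM). Of 25 tested p53-response and cell death genes, 2 were higher and 6 lower (1 and 2 without RA replicate 1, 2 and 3 without TGF replicate 1).

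The promoters of the cell cycle list are the ones where a shared letter pattern could be shown. The E2F motif, written TTTCCCGC or TTTGGCGC on either strand, was searched for from 250 bases before the start to 50 bases after it. It lay there in 7 of the 33 list members that have a window (21.2%), against 3.70% of 9088 tested genes and 1.80% of all genes with a window. So most list members lacked it. Among all genes called lower with retinoic acid the share was 6.42%, and among those called higher 1.7%. The 6 stretches that follow, each 48 bases from before the start of a list member called lower with retinoic acid and picked for its motif, have the motif in capitals. They are Cdc25a (chr9:109875492-109875539, plus strand), Cdc6 (chr11:98907993-98908040, plus), Cdk2 (chr10:128705164-128705211, minus), Mcm5 (chr8:75109340-75109387, plus), Mcm6 (chr1:128359788-128359835, minus) and Mcm7 (chr5:138172021-138172068, minus).
Cdc25a: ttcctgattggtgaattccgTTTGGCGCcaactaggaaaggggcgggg
Cdc6: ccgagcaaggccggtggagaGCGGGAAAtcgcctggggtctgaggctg
Cdk2: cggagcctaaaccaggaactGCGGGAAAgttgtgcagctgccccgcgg
Mcm5: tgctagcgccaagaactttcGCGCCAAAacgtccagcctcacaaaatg
Mcm6: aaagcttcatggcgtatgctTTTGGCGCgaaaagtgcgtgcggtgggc
Mcm7: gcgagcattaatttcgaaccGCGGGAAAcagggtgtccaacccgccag
The share is a description of letters in these windows and not of E2F binding. Cdc6, which loads the helicase, had a log2 fold change of -0.62 ± 0.10, and Mcm7, a helicase subunit, of -0.44 ± 0.09.

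The DNA methylation machinery had 4 lower and 0 higher of 21 tested genes, 19% called against 16.5% of all tested genes (2 lower without TGF replicate 1, and 3 lower with 2 higher without RA replicate 2). Among the lower ones was Uhrf1, which brings the maintenance methyltransferase to replicating DNA (255 and 240 CPM in the RA cultures, against 394 and 359 CPM in the TGF cultures, -0.60 ± 0.08, adjusted p = 0.000172). The dioxygenase genes did not pass. Tet1 had 4.12 and 3.46 CPM against 3.82 and 2.47 CPM (adjusted p = 0.557), Tet2 had 21.2 and 16 CPM against 17.2 and 16.3 CPM (adjusted p = 0.582), and Tet3 had 145 and 105 CPM against 99.7 and 85 CPM (adjusted p = 0.0625, but 0.00624 without RA replicate 2 and 0.0452 by DESeq2).

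Interferon-response genes included few calls beside the 16.5% of all tested genes, with 4 higher and 1 lower of 45 tested (11.1%; 2 and 0 without RA replicate 1 or TGF replicate 1, and 4 and 0 without TGF replicate 2). The Ifitm genes, a family of membrane proteins that block virus entry, stood out by the size of their change, and were picked out after their values were seen. Ifitm1, Ifitm2, Ifitm3 and Ifitm6, all lower with retinoic acid, are not on the interferon-response list, so its counts leave them out. Ifitm1 had 5.44 and 7.6 CPM in the RA cultures, against 194 and 168 CPM in the TGF cultures (-4.80 ± 0.21, adjusted p = 3.43e-08). Ifitm2 had 98.4 and 127 CPM against 485 and 518 CPM (-2.15 ± 0.11, adjusted p = 1.55e-08), and Ifitm3 had 41 and 51.5 CPM against 286 and 295 CPM (-2.65 ± 0.16, adjusted p = 3.05e-07). Ifitm6 had 0.187 and 0.395 CPM against 8.2 and 7.78 CPM (-4.73 ± 0.39, adjusted p = 2.81e-06). These 4 genes neighbour each other in the RefSeq order (GRCm38.p6). Their sequences are alike, and how the authors' counting shared reads between copies is not stated, so the split between them is uncertain. Ifitm10, which lies outside that run, had 0.375 and 0.592 CPM against 0.364 and 0.285 CPM and did not pass (adjusted p = 0.646), and Ifitm5 and Ifitm7 were too low to be tested.

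Among the 12 largest increases at a mean of 10 CPM or more, several genes belonged to no list. Gm14085, which the RefSeq table names Slc28a2b, had 299 and 214 CPM in the RA cultures, against 13.4 and 18.3 CPM in the TGF cultures (4.02 ± 0.24, adjusted p = 2.28e-06). Plac8, a small cysteine-rich protein of immune cells, had 24.2 and 33.5 CPM against 1.64 and 1.23 CPM (4.31 ± 0.59, adjusted p = 0.00154). Art2b, an ADP-ribosyltransferase of the T cell surface, had 33.4 and 40.8 CPM against 4.83 and 9.21 CPM (2.40 ± 0.27, adjusted p = 8.13e-05). Lztfl1 had 75.7 and 68.7 CPM against 15.3 and 18.8 CPM (2.08 ± 0.11, adjusted p = 1.57e-08). None of these 4 overlapped between the groups. The others were Camk2n1 (2.42 ± 0.21), Enpp4 (2.22 ± 0.19), Myl10 (2.21 ± 0.24) and the pseudogene Bambi-ps1 (2.47 ± 0.13). Among the largest decreases outside the lists were Plxnb2, a semaphorin receptor (9.28 and 13.2 CPM against 106 and 79.4 CPM, -3.04 ± 0.23, adjusted p = 4.23e-06), and Igfbp7, a secreted binding protein of growth factors (20.2 and 18.3 CPM against 114 and 92.8 CPM, -2.42 ± 0.22, adjusted p = 2.76e-05). Anxa2, a membrane-binding annexin, had 72.7 and 101 CPM against 520 and 366 CPM (-2.35 ± 0.23, adjusted p = 0.000183).

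Several of these genes sit side by side on a chromosome, a feature looked at after their values were seen. In the RefSeq order of tested genes, Lztfl1 precedes Ccr9, and Fyco1, after Ccr9, was also higher (0.68, adjusted p = 0.017). Slc28a2 (1.09, adjusted p = 9.43e-07), Bambi-ps1 and Gm14085 follow one another, Enpp5 (3.88, adjusted p = 1.05e-07) precedes Enpp4, and Art2a-ps (2.88, adjusted p = 0.00413) precedes Art2b. Of the 24 places next to the 12 most raised genes, 12 held a gene called higher and 0 one called lower, and outside the 12 genes themselves it was 8 of 20 places. Next to the 12 most lowered genes, 10 of 23 places held a gene called lower and 0 one called higher, or 8 of 21 outside the 12 themselves. These lower counts include Myadm as the neighbour of Hbb-b1. Hbb-b1 had no gene before it in this order, and that placement was not checked. Of all tested genes 7.19% were called higher and 9.29% lower. Paralogs such as Enpp4 and Enpp5, Art2b and Art2a-ps, or Gm14085 and Slc28a2 may share reads, and its part in these counts was not tested.

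Markers of other cell types were low but moved with the groups in places. Of 13 B cell markers 10 had 0 reads, Ms4a1 and Pax5 among them, and the sum was 6.09 and 5.73 CPM in the RA cultures, against 3.55 and 3.23 CPM in the TGF cultures. Of 21 myeloid and dendritic markers 14 had 0 reads, including Csf1r and Lyz2, and the sum was 4.22 and 3.16 CPM against 11.3 and 8.16 CPM. NK and innate lymphoid markers summed to 69.9 and 55.2 CPM against 30.7 and 29.6 CPM, with 8 of 13, including Ncr1, at 0. Nearly all of that sum was Kit, a growth factor receptor (69 and 53.8 CPM against 29.4 and 28.6 CPM, 1.08 ± 0.16, adjusted p = 0.000258). CD8 T cell markers summed to 57.2 and 53.8 CPM against 33.1 and 36.3 CPM, with 1 of 8, Gzmk, at 0. Within them, Cd8a was higher (3.47 and 3.06 CPM against 0 and 0.474 CPM, 3.75 ± 0.54, adjusted p = 0.000302) while Cd8b1 was lower (8.06 and 7.8 CPM against 13.2 and 14.8 CPM, -0.82 ± 0.15, adjusted p = 0.00146). Erythroid and platelet markers summed to 39.8 and 71.4 CPM against 180 and 130 CPM, with 4 of 9, including Slc4a1, at 0, and Hbb-b1, a haemoglobin chain, had 0.562 and 3.16 CPM against 44.9 and 36.2 CPM (-4.46 ± 0.42, adjusted p = 8.85e-05). The part of such cells in the lists was not tested. Of the tested markers, 1 of 2 B cell, 1 of 3 NK and 2 of 6 CD8 T cell genes were higher, 2 of 5 myeloid, 1 of 3 erythroid, 1 of 6 CD8 and 1 of 11 CD4 T cell genes were lower. The B cell call, Cd79b, was lost without any 1 of the 4 libraries, and 1 myeloid call, Adgre1, without TGF replicate 1.

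Of 14 tested cytotoxic genes, which overlap with the CD8 and NK markers, 3 were higher and 1 lower, the same counts without any 1 of the 4 libraries. Nkg7, a granule protein of killer cells, had 16.2 and 16.5 CPM in the RA cultures, against 3.92 and 2.94 CPM in the TGF cultures (2.25 ± 0.22, adjusted p = 6.63e-06). Gzmb, granzyme B, had 112 and 200 CPM against 329 and 302 CPM and did not pass (-1.02 ± 0.47, adjusted p = 0.199, but 0.0107 with only the RA and TGF libraries in the fit and 0.00248 by DESeq2). Of 24 tested naive and memory genes 6 were higher and 7 lower, with a median of 0.191. Actn1, an actin crosslinker abundant in naive T cells, had 334 and 236 CPM against 92.7 and 99.5 CPM (1.57 ± 0.14, adjusted p = 7.31e-06). Dapl1, also typical of naive cells, had 9.47 and 16.1 CPM against 68.3 and 51.1 CPM (-2.23 ± 0.26, adjusted p = 0.000277). Of 2 tested T cell chemokines 0 were higher and 1, Ccl5, was lower.

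**Figure D2:**
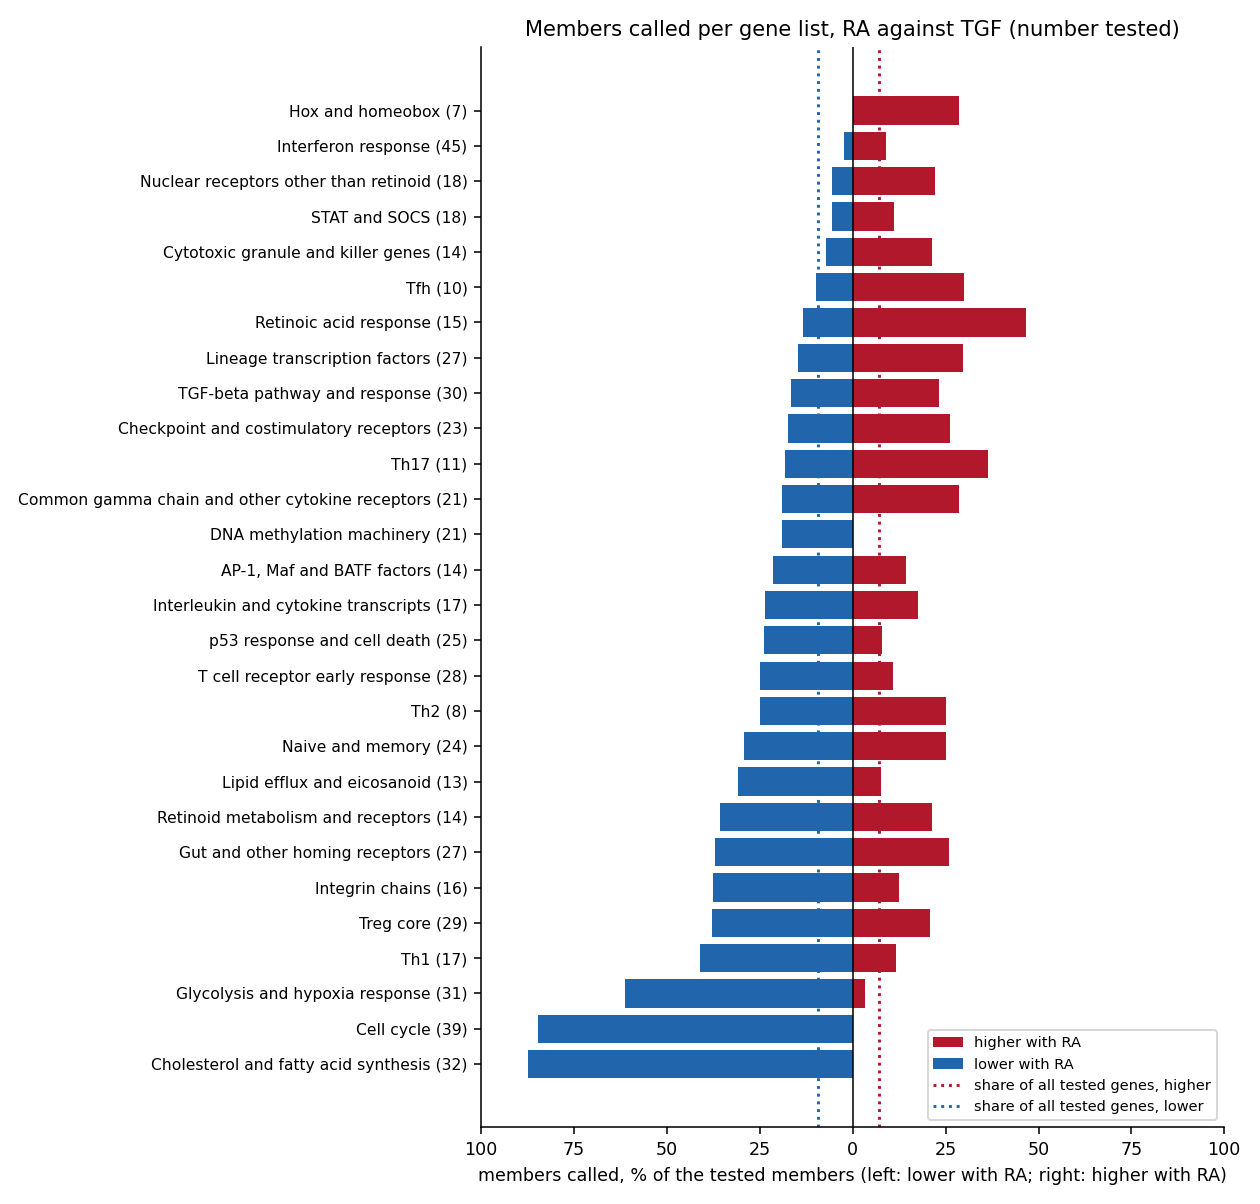
Share of the tested members of each gene list that were called lower (left, blue) or higher (right, red) in RA against TGF cultures, in % of tested members on the x axis, with the number tested after each list's name and lists ordered by their share of lower members. Dotted lines mark the share of all tested genes, 7.19% higher and 9.29% lower, and the sterol, cell cycle and glycolysis lists reach farthest to the left. The lists were chosen with earlier results of these data known.

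Retinoic acid was also added to cultures that held vitamin C, in 4 libraries that share none with the comparison above. They entered the same fit, so both sets of calls share the gene filter and the estimate of spread. Same-numbered RA and RA+VC libraries also deviated together at r = 0.418. With vitamin C, 1706 of 11287 genes (15.1%) differed between RA+VC and VC cultures, 656 higher (5.81%) and 1050 lower (9.3%), but 819 without VC replicate 1, 1014 without RA+VC replicate 2 and 1115 without RA+VC replicate 1. Of the 1860 genes called without vitamin C, 1822 (98%) had the same sign with it, against 76.5% of all tested genes, and 1095 were called in the same direction, which is 58.9% of the first list and 64.2% of the second. Only Nrp1 was called in opposite directions, higher in RA than TGF (0.43 ± 0.14) and lower in RA+VC than VC (-0.44 ± 0.13, 199 and 154 CPM against 249 and 228 CPM). Ccr9 had 650 and 692 CPM in the RA+VC cultures, against 0.465 and 0.27 CPM in the VC cultures (10.79 ± 0.21, adjusted p = 3.31e-14). Gpr15 had 0.666 and 0.332 CPM against 22.3 and 14.8 CPM (-5.21 ± 0.48, adjusted p = 7.65e-06). Itga4 had 658 and 452 CPM against 451 and 334 CPM and did not pass (0.50 ± 0.25, adjusted p = 0.238). Foxp3 had 959 and 846 CPM against 959 and 892 CPM and did not pass (-0.04 ± 0.09, adjusted p = 0.856). With vitamin C, 17 of 32 sterol and fatty acid genes, 28 of 39 cell cycle genes and 13 of 31 glycolysis genes were lower, and 0, 0 and 1 were higher.

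Whether the retinoic acid effect differed with vitamin C was tested gene by gene, as (RA+VC over VC) over (RA over TGF). At an adjusted p under 0.05, 2 of 11287 genes (0.0177%) differed, and 564 had an unadjusted p under 0.05, of the 11287. DESeq2 called 17 and the limma fit 23. Both genes fell farther with retinoic acid when vitamin C was present. Ctss, the lysosomal protease cathepsin S, had 47 and 43.1 CPM in the RA+VC cultures against 214 and 212 CPM in the VC cultures, and 67.3 and 67.5 CPM in the RA cultures against 131 and 148 CPM in the TGF cultures (difference -1.20 ± 0.14, adjusted p = 0.00314). Itgb1, the integrin β1 chain, had 335 and 304 CPM against 815 and 740 CPM with vitamin C, and 329 and 311 CPM in the RA cultures against 389 and 396 CPM in the TGF cultures (difference -0.99 ± 0.13, adjusted p = 0.00648, but 0.0727 without TGF replicate 1, 0.0638 without VC replicate 1 and 0.0569 without RA+VC replicate 2). Within RA and TGF cultures the fall of Itgb1 was small (-0.29 ± 0.09, adjusted p = 0.0355) and was not called without RA replicate 2, TGF replicate 1 or TGF replicate 2. For Itgb1 the RA+VC and RA libraries overlapped, while the VC libraries lay above the TGF libraries. The differences for Foxp3 (-0.36 ± 0.13, adjusted p = 0.764), Nrp1 (-0.87 ± 0.19, adjusted p = 0.165) and Itga4 (-0.64, adjusted p = 1) did not pass.

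**Figure D3:**
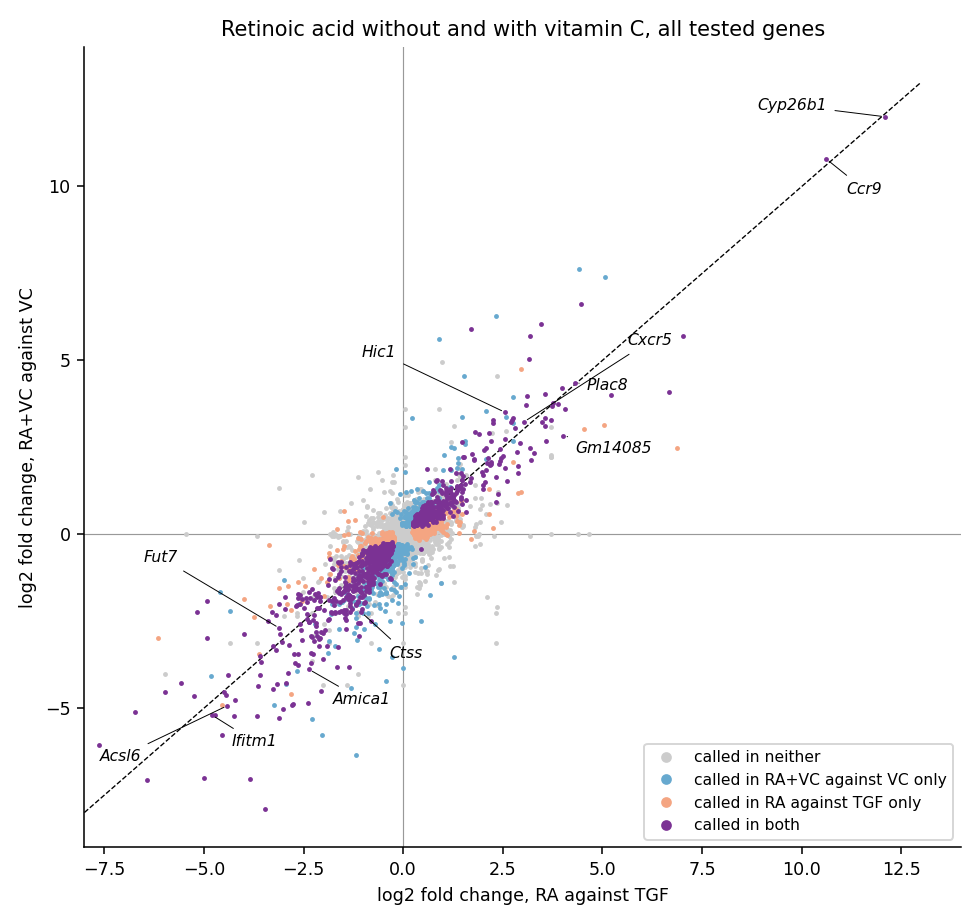
Log2 fold change of each of 11287 tested genes with retinoic acid, RA against TGF on the x axis and RA+VC against VC on the y axis, coloured by where the gene was called, with a dashed line at equal change. Most called genes lie near the line, Ccr9 and Cyp26b1 far from the rest at the top right, and Ctss lies below it; the position of Cyp26b1 depends on the fit because its counts without retinoic acid are 0.

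Set directly against cultures with vitamin C, RA cultures differed in 1821 of 11287 genes (16.1%), 780 higher and 1041 lower, and in 978 without VC replicate 1. Foxp3 was lower in RA than in VC cultures, with 750 and 620 CPM against 959 and 892 CPM (-0.43 ± 0.09, adjusted p = 0.00393). This comparison shares the RA libraries with the one above.

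The direction of the retinoic acid effect was set beside the difference between naive and Th0 cells, in libraries that the RA against TGF comparison does not use, and this was chosen after the values were seen. Naive and Th0 cells differed in 8131 of 11287 genes (72%). Of the 811 genes higher with retinoic acid, 590 (72.7%) were higher in naive than in Th0 cells and 98 (12.1%) lower. Of the 1049 genes lower with retinoic acid, 845 (80.6%) were lower in naive than in Th0 cells and 80 (7.63%) higher. Over all tested genes 36.4% were higher and 35.7% lower in naive cells. Among genes changed by 2-fold or more the shares in the same direction were smaller. Of the 172 higher with retinoic acid, 95 (55.2%) were higher in naive cells and 26 (15.1%) lower, with a median of 1.26. Of the 304 lower, 200 (65.8%) were lower in naive cells and 34 (11.2%) higher, with a median of -2.53. For all called genes the median naive over Th0 log2 fold change was 0.944 for those higher with retinoic acid and -1.73 for those lower. It was 0.0102 for all tested genes. Camk2n1, an inhibitor of a calcium-dependent kinase, had 19.7 and 19.4 CPM in the RA cultures against 3.28 and 3.99 CPM in the TGF cultures, while naive cells averaged 0.479 CPM and Th0 cells 0.651 CPM and did not pass the test (adjusted p = 0.519).

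**Figure D4:**
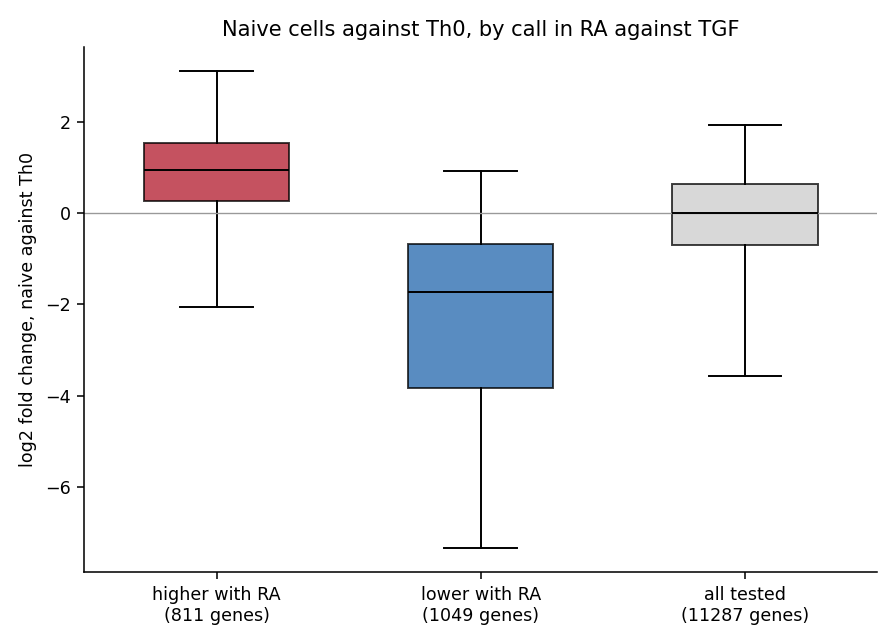
Log2 fold change of naive against Th0 cells on the y axis for 811 genes higher with retinoic acid, 1049 lower and all 11287 tested genes; the line is the median, the box the middle 50% and the whiskers the 5th to 95th percentile. The median lies at 0.944 for the genes higher with retinoic acid and at -1.73 for those lower.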

How the data were processed

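RNA from the cultures was sequenced after a stranded messenger RNA library preparation, per the labels' protocols. The authors deposited gene counts, unscaled read totals for 21761 genes, 1 column per library, and FPKM values, which are scaled by the authors for exon length and counted reads. The submitters' processing notes name build mm9, the spliced aligner TopHat2 2.1.1, edgeR 3.26.6, R 3.6.1 and the read trimmer Trim Galore 0.4.2, without their settings. The read counter and gene annotation are not given in the sources used here, so reads shared by near-identical genes may be split between them.

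From the deposited counts, 92 genes without a symbol are kept by their ID, and CPM were computed per 1e+06 reads of the TMM-scaled library total. The 12 libraries of 6 groups entered 1 edgeR quasi-likelihood fit (edgeR 4.0.16, R 4.3.3, robust, genes passing filterByExpr), with Benjamini-Hochberg adjustment over 11287 genes and a threshold of 0.05. SE were taken from the test statistic. FPKM were used to compare levels between genes and, as log2(FPKM + 1), in limma 3.58.1. Alternatives were DESeq2 1.42.0, RLE scaling, no filter, fewer libraries, a replicate block, a required change of 2-fold, and leaving out each library. Counts were simulated in a single run for RA against TGF on 11224 genes, with the spread of the fit. Far fewer genes were changed in it than were called in the data. Of 67 genes planted at 1.5-fold 64.2% were recovered, and of 67 at 2-fold 94%. False calls made up 9.68% of the calls, above the threshold of 0.05. A group at 0 was given a bound from 3 counts, and intervals are exact at 95%. Bounds and intervals cover counting error only.

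Named genes were a fixed set of followed genes, the 12 largest changes each way at a mean of 10 CPM and 6 at 100 CPM, up to 6 called and 3 other members of each of 35 gene lists, and the largest differences with vitamin C. The members and lists were chosen with earlier results of these data known, and genes outside the rule are said to be chosen after their values were seen. The E2F genes shown were picked for their motif. Promoter windows are from RefSeq (GRCm38.p6), and 80.5% of tested genes had one. Libraries of other experiments in the series were not used here. Some genes are not reported here.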

Additional observations from a re-analysis of the deposited data

Results flagged for a closer look

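The effect of retinoic acid differed with and without vitamin C for 2 genes, by a test of the difference itself in the edgeR fit. For Ctss the log2 fold change was -2.24 in RA+VC against VC cultures and -1.05 in RA against TGF cultures, a difference of -1.20 ± 0.14 (adjusted p = 0.00314). For Itgb1 it was -1.28 and -0.29, a difference of -0.99 ± 0.13 (adjusted p = 0.00648), and its adjusted p was 0.0727 without TGF replicate 1, 0.0638 without VC replicate 1 and 0.0569 without RA+VC replicate 2. Ctss was called without any 1 of the 8 libraries.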

How the results depend on the processing

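No named gene called in RA against TGF, in the main fit or under an alternative, turned its direction under that alternative. Called genes that are not named were not checked for this. Of the named genes, 25 turned sign under at least 1 alternative, with no call in either fit, Rdh10 among them (-0.17 without TGF replicate 1). With only the RA and TGF libraries the Th17 list had a median of -0.22. With a change beyond 2-fold required by the test, 136 genes were called in RA against TGF (58 higher, 78 lower), 0 differed with vitamin C, 289 were called in RA against VC and 231 in RA+VC against VC. Leaving out 1 library at a time gave 795 to 1898 changed genes in RA against TGF, 349 to 903 higher, 446 to 995 lower and 306 to 475 by 2-fold or more. It gave 1 to 11 genes that differed with vitamin C, 978 to 1742 in RA against VC and 819 to 1367 in RA+VC against VC. The RA and TGF libraries alone gave 1342 changed genes, 503 of them higher, and limma on log2 FPKM gave 189 genes by 2-fold or more. Genes that differed with vitamin C numbered 25 without the count filter, 23 with limma and 17 with DESeq2, and Ctss and Itgb1 were among each. The cause of these differences was not tested. The fit of RA and TGF libraries alone was not run for results that need vitamin C groups.

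Same-numbered RA and TGF libraries deviated together at r = 0.232, the iTreg groups at 0.222 to 0.418, and pairs with naive or Th0 cells at 0.0133 to 0.0898. The labels do not say that a number marks a shared culture or day, so the libraries were not treated as paired. With a replicate block 2584 genes changed in RA against TGF (1189 higher, 1395 lower, 521 by 2-fold or more), 2275 in RA+VC against VC, 2429 in RA against VC, and 26 differed with vitamin C. Of the genes given above as not passing, the block called Tet3 (adjusted p = 0.00318), Ctla4 (0.0077), Fasn (0.0197), Rara (0.031), Hif1a (0.0314) and Tgfb1 (0.0446).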
